A study of Homo sapiens with 2 samples.

Results

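The genes described are NKX2-1, SFTA3, FOXA1, FOXA2, FOXA3, HNF4A, SPDEF and ELF3, 7 transcription factors of lung and gland lineages and 1 gene, SFTA3, that lies beside NKX2-1. They were chosen by symbol, and all 8 were found among the 27685 genes listed, with 29 of the 63714 listed transcripts. RNA-seq was performed on 1 library of untreated H2087 cells and 1 library of untreated H596 cells, which are established human cell lines that both carry the label lung adenocarcinoma. Both were grown in RPMI medium with fetal bovine serum and antibiotics. With 1 library per cell line there was no replicate check, so no test between the cell lines was made, and the intervals given are for counting error only.

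NKX2-1, also called TTF-1, is a homeobox factor needed to form the lung and the thyroid, and it drives surfactant genes in alveolar type 2 cells. Its staining is used by pathologists to recognize lung adenocarcinoma. FOXA1, FOXA2 and FOXA3 are forkhead factors that bind closed chromatin in organs that grow from the gut tube, HNF4A is a nuclear receptor of liver and gut epithelium, SPDEF is an ETS factor of goblet cells, and ELF3 is an ETS factor of epithelial cells. Mucinous lung adenocarcinomas that lack NKX2-1 are known for HNF4A expression. The protein-coding status of SFTA3 is not uniform, since 2 of its 9 listed transcripts carry coding accessions and 7 carry noncoding ones.

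To show the sequence around the starts of these genes, 250-base windows before each start were taken from RefSeq for GRCh38.p14, which held 10 entries for 7 of the 8 genes; FOXA2 had no entry. The windows were searched on both strands for the forkhead words TGTTTAC and TGTTTGC and for the NKX2-1 word CAAGTG, none of which overlapped another. RefSeq gave NKX2-1 and SFTA3 1 window in common, chr14:36519557-36519806 on the minus strand, before a start that it lists for both genes. This window held CAAGTG from 147 bases and TGTTTAC from 130 bases before the start. The stretches below, with matches to a searched word or its reverse complement in capitals, show these letters and, for contrast, those of FOXA1 and ELF3, which were abundant in both cell lines:
NKX2-1 and SFTA3, common start, chr14:36519678-36519707, minus strand: ctgaCAAGTGaaacttaaaggTGTTTACct
NKX2-1, upstream start, chr14:36520453-36520482, minus strand: ccagtgctgTGTTTGCtcggccgggggtgg
SFTA3, downstream start, chr14:36513536-36513565, minus strand, no match: ccgcgactgaaatccgagccaggcctgggc
FOXA1, far stretch, chr14:37595467-37595496, minus strand: ttacactgctttGCAAACAaagtgagggcc
FOXA1, near stretch, chr14:37595250-37595279, minus strand: tccacatcagctcaactgCACTTGcctcgc
ELF3, chr1:202010431-202010460, plus strand: ctaagatccgggcCAAGTGgcactgaatat

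Of the 9 distinct windows of these genes, 3 held either forkhead word, 3 held CAAGTG and 2, the common window and that of FOXA1, held both kinds. Among all 34943 distinct RefSeq windows of this length, TGTTTAC was found in 2.98%, TGTTTGC in 3.24%, either of them in 6.10% and CAAGTG in 9.51%. A forkhead word and CAAGTG stood together in 0.767% of all windows. A match is a description of letters and not a binding site. The positions in the rest of the text are those of the deposited hg19 tables and cannot be set beside these coordinates. In those positions NKX2-1 and SFTA3 have no start in common, and their nearest starts are 177 bases apart. The common window thus does not describe a common start of the transcripts measured.

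The gene table held 46961500 estimated counts for H2087 and 1.18 times as many, 55387847, for H596. In both libraries the epithelial markers EPCAM, CDH1, KRT8, KRT18 and KRT19 were present, with summed FPKM of 7088 in H2087 and 3078 in H596. The 4 basal and squamous markers TP63, KRT5, KRT14 and KRT13 summed to an FPKM of 0.464 in H2087, where KRT5 and KRT14 had 0 counts, and to 3721 in H596. The neuroendocrine markers NEUROD1, INSM1 and CHGA had 0 counts in both libraries, and SYP measured 0.120 FPKM in H2087 against 0.823 in H596. The 5 fibroblast markers summed to 3.90 and 10.7, and the 3 endothelial ones to 0.413 and 0.816. The immune markers PTPRC and CD3E had 0 counts in both, while CD68, which epithelial cells also express, made up nearly all of a sum of 128 in H2087 and 25.6 in H596. The difference in basal markers went along with every difference between the cell lines given here, and its part in them was not tested.

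NKX2-1 was abundant in H2087 and nearly absent from H596. NKX2-1 (gene 7080) lies on the minus strand of chromosome 14 from 36985604 to 36989430. Its FPKM, the fragments of a transcript scaled to its length and to the depth of the library, was 110.0 in H2087 (95% interval, 108 to 112) from 12092 estimated counts. In H596 its FPKM was 0.508 (95% interval, 0.399 to 0.646) from 66 counts. These intervals do not overlap, and the level in H2087 was 217-fold higher (95% interval, 170.2 to 280.3). In such bulk RNA, fewer cells that express a gene and less RNA per cell cannot be told apart. NKX2-1 ranked 633 of 27683 gene symbols by FPKM in H2087 and 13610 in H596.

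SFTA3 showed the same pattern at a similar level. SFTA3 (gene 253970), described in the tables as surfactant associated 3, lies on the same strand from 36942494 to 36988726. Its FPKM was 100.6 in H2087 (95% interval, 98.4 to 103) from 7872 counts. In H596 its FPKM was 0.0304 (95% interval, 0.0139 to 0.0664) from 6 counts. The FPKM was 3308-fold higher in H2087 (95% interval, 1519 to 9018). From the counts, an alternative chosen after seeing the data, the fold was 1547 (95% interval, 711 to 4218), which is 2.14 times smaller, because the FPKM values in H596 amounted to 3 reads and not 6. On 3 reads the interval of the FPKM fold was 1132 to 16046. The fold of SFTA3 is therefore known only roughly, with intervals that reach from 711 to 16046. The near absence from H596 holds on either scale.

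**Figure D1:**
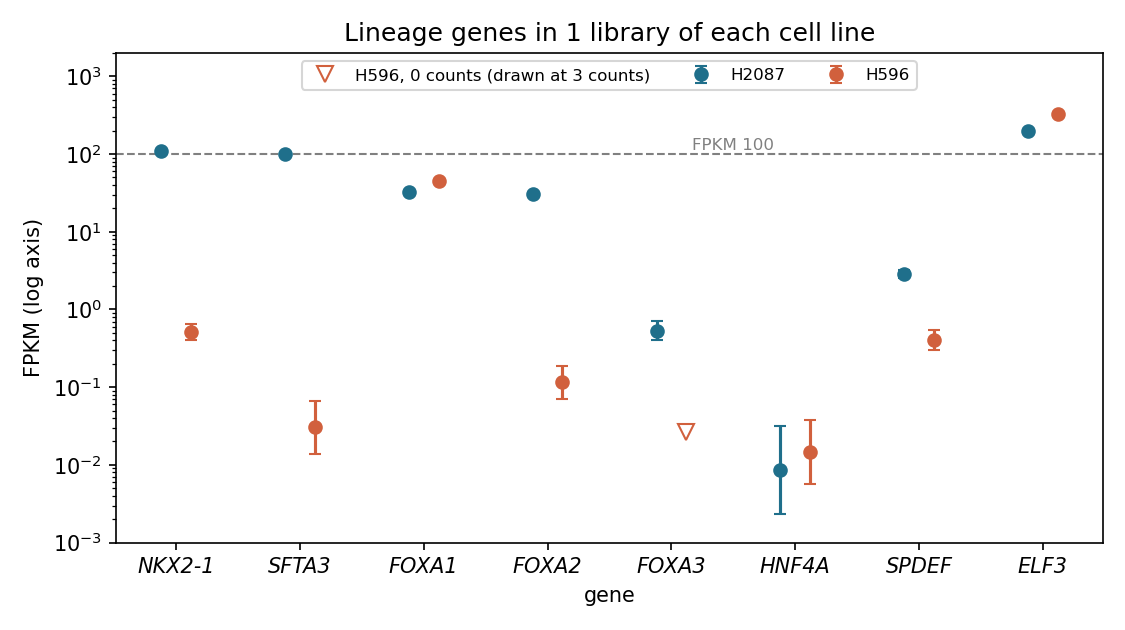
FPKM of the 8 lineage genes on a log axis, 1 point per library, with bars for the 95% Wilson interval of counting error; an open triangle marks 0 counts, drawn at the level of 3 counts. NKX2-1, SFTA3 and FOXA2 sit between 30.5 and 110.0 in H2087 and below 1 in H596, while FOXA1 and ELF3 sit above 30 in both.

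The transcripts of NKX2-1 and SFTA3 are interleaved. NKX2-1 has 2 listed transcripts whose starts are 527 bases apart. The shorter-span transcript, NM_003317, which starts at 36988903, measured 79.8 FPKM in H2087, or 72.6% of the gene, and 0.309 in H596, or 60.8%. The longer-span one, NM_001079668, which starts at 36989430, measured 30.2 FPKM in H2087 against 0.199 in H596. Both were thus low in H596, where the split rests on 41 and 25 counts.

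Of the 9 SFTA3 transcripts, 7 start at 36982990, which leaves 2613 bases to the last base of NKX2-1. The other 2, NR_138595 and NR_138596, start at 36988726 inside NKX2-1, 177 bases after the NM_003317 start, and run through to the SFTA3 end. The span of SFTA3 covers 3123 bases, or 81.6%, of NKX2-1 in this way. These 2 transcripts had a summed FPKM of 6.28 in H2087 (95% interval, 5.63 to 7.01), which is 6.24% of the gene, and 5.7e-05 in H596. Where reads of 2 overlapping genes on 1 strand are divided by an estimate, their assignment is uncertain. Without these 2 transcripts, an alternative chosen after seeing the data, SFTA3 measured 94.3 FPKM in H2087 (95% interval, 92.2 to 96.5). By this estimated division, most of the level of SFTA3 in H2087 was assigned to transcripts that do not overlap NKX2-1.

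Among the 7 transcripts that start at 36982990, the level was spread over many forms. The highest was NR_138597 with an FPKM of 24.5 in H2087, 24.4% of the gene, and 0 in H596. NR_138601 had 14.6 in H2087, NM_001101341 had 14.3, NR_138600 had 13.7 and NR_138598 had 12.3. The coding accessions together held an FPKM of 23.2, or 23.0%, in H2087 and 0 counts in H596. The noncoding accessions held 77.4, or 77.0%, in H2087. In H596 NR_138601 held 71.5% of the gene and NR_138600 held 18.8%, on 3 counts and 1 count, so those shares are not informative.

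**Figure D2:**
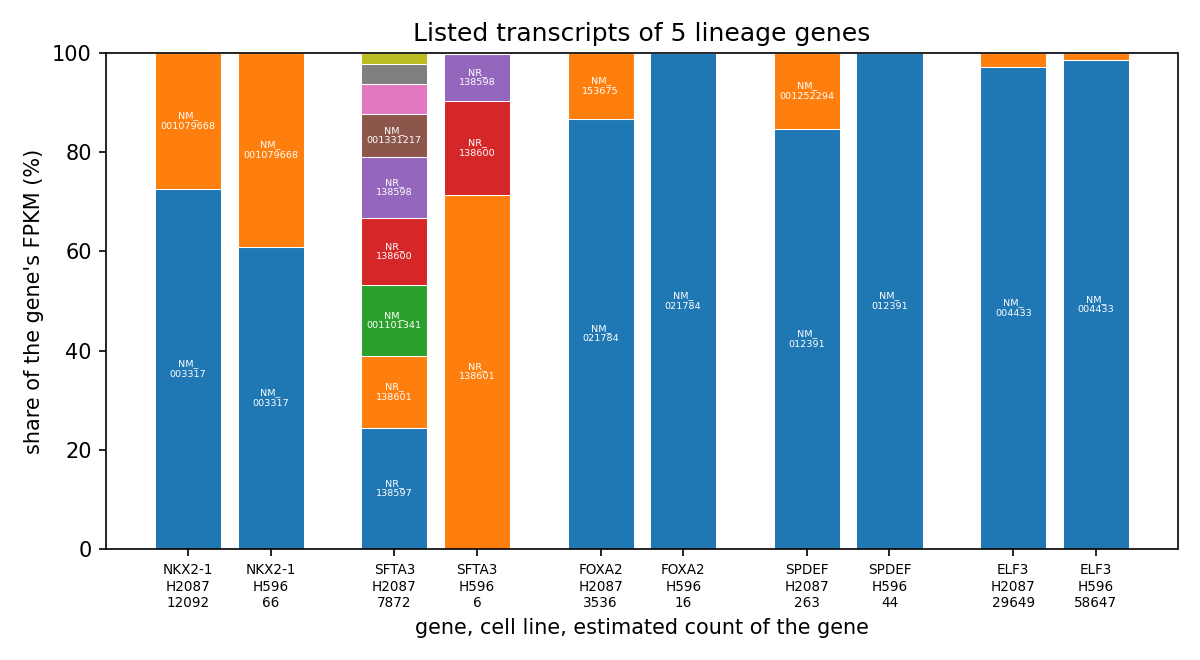
Share of each gene's FPKM (%) held by its listed transcripts in H2087 and H596, for 5 of the genes, 1 bar per gene and library with the gene's estimated count under it; each color within a gene is 1 transcript, and shares of at least 8.5% are labelled. NM_003317 holds 72.6% of NKX2-1 in H2087, SFTA3 is divided among 9 transcripts there, and NM_004433 holds over 97% of ELF3 in both libraries.

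FOXA1 and FOXA2 were at close levels in H2087, 1.06-fold apart, and far apart in H596. FOXA1 (gene 3169), on chromosome 14 from 38058757 to 38064325, measured 32.2 FPKM in H2087 (95% interval, 31.3 to 33.1) and 44.5 in H596 (95% interval, 43.6 to 45.5). It was 1.38-fold higher in H596 (95% interval, 1.34 to 1.43), a difference beyond counting error but below 2-fold. FOXA2 (gene 3170), on chromosome 20 from 22561642 to 22566101, measured 30.5 FPKM in H2087 (95% interval, 29.5 to 31.5), which overlaps the interval of FOXA1. In H596 FOXA2 had an FPKM of 0.116 (95% interval, 0.0715 to 0.189) from 16 counts. It was 262-fold higher in H2087 (95% interval, 161 to 459), a fold whose interval overlaps that of NKX2-1.

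The FOXA2 reads of H2087 came from both listed starts, which are 1000 bases apart. NM_021784, with the start nearer to the gene body, measured 26.4 FPKM there, 86.8% of the gene. NM_153675 had 4.04 in H2087 and 0 counts in H596. FOXA3 (gene 3171), on chromosome 19 from 46367518 to 46377055, was low in both, with an FPKM of 0.533 in H2087 (95% interval, 0.406 to 0.701) from 51 counts and 0 counts in H596. A count of 0 leaves room for up to 3 counts, which is an FPKM of 0.0266, and against that limit FOXA3 was at least 20.1-fold higher in H2087. Of the FOXA genes, FOXA1 was thus the one present in both cell lines.

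HNF4A was not expressed at a level that the depth could measure in either cell line. HNF4A (gene 3172), on chromosome 20 from 42984441 to 43061485, had 2 counts in H2087, an FPKM of 0.00863 (95% interval, 0.00237 to 0.0315), and 4 counts in H596, an FPKM of 0.0146 (95% interval, 0.00570 to 0.0377). The ratio, 1.70 in favor of H596, has an interval of 0.243 to 18.8. It is transcribed from 2 promoters 45455 bases apart, and 6 of its 10 listed transcripts start at the upstream one. All 6 had 0 counts in both libraries, and the counts were those of 1 transcript of the downstream start, NM_001258355.

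The ETS factors SPDEF and ELF3 differed from each other in level and direction. SPDEF (gene 25803), on chromosome 6 from 34505579 to 34524110, measured 2.86 FPKM in H2087 (95% interval, 2.53 to 3.23) from 263 counts and 0.405 in H596 (95% interval, 0.302 to 0.544) from 44 counts. It was low in both libraries and 7.06-fold higher in H2087 (95% interval, 5.12 to 9.96). NM_012391 held 84.7% of it in H2087 and all of it in H596, while NM_001252294 had 40 counts in H2087 and 0 in H596. ELF3 (gene 1999), on chromosome 1 from 201979690 to 201986315, measured 197 FPKM in H2087 (95% interval, 195.0 to 199) and 329.7 in H596 (95% interval, 327 to 332). It was 1.67-fold higher in H596 (95% interval, 1.65 to 1.70). NM_004433 held 97.2% of ELF3 in H2087 and 98.6% in H596, so the same form was used in both. ELF3 was the highest of the 8 genes in both cell lines and ranked 310 of all gene symbols in H2087 and 148 in H596.

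The order of the levels differed between the cell lines. In H2087 it ran ELF3, NKX2-1, SFTA3, FOXA1, FOXA2, SPDEF, FOXA3 and HNF4A, and the intervals of neighbours overlapped for FOXA1 and FOXA2. In H596 it ran ELF3, FOXA1, NKX2-1, SPDEF, FOXA2, SFTA3, HNF4A and FOXA3, and the intervals overlapped for NKX2-1 and SPDEF and for SFTA3 and HNF4A. FPKM is per length of transcript, so genes can be ordered by it. ELF3, NKX2-1 and SFTA3 reached an FPKM of 100, the level used to select highly expressed genes, in H2087, where 2.54% of all gene symbols did. SFTA3 did so within counting error, and without the 2 transcripts that start inside NKX2-1 it measured 94.3, below that level. In H596, where 2.3% of all did, ELF3 was the one that reached it.

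On the scale of log2(FPKM + 1), H596 minus H2087, the differences were -6.20 for NKX2-1, -6.62 for SFTA3, -4.82 for FOXA2, -1.46 for SPDEF, -0.62 for FOXA3, 0.01 for HNF4A, 0.46 for FOXA1 and 0.74 for ELF3. This scale understates the differences of low genes. A gene was called different at 1 or more on it, which is 2-fold for abundant genes, if its mean FPKM was at least 1. FOXA3 and HNF4A did not reach that mean. NKX2-1, SFTA3, FOXA2 and SPDEF were called lower in H596, 4 of the 8 genes, and 0 were called higher. Of the 13047 gene symbols examined, 14.2% were called lower and 18.2% higher, 32.4% in all. That balance depends on the scaling, with 2376 called higher and 1850 lower as deposited, 3589 and 2004 in TPM, 2039 and 2136 after TMM scaling, and 2042 and 2120 after centring on the median. The median difference of the 8 genes was -1.04, against 0.00 for all listed genes, and that of the 6 examined was -3.14, against 0.12 for all genes examined. TMM scaling moved the median of all examined genes to -0.00, and under it FOXA1 and ELF3 were still higher in H596, with differences of 0.33 and 0.61. The 8 genes were chosen with these results known, so their count is not evidence about a class of genes.

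On the log2(FPKM + 1) scale, which understates low genes, the genes around NKX2-1 and SFTA3 differed less than these 2 did. None of those examined was high enough in H2087 to fall as far. Within 1 Mb on each side, 15 other genes were listed, of which 12 had counts and 8 were examined. Of these 8, 2 were called lower in H596, 1 was called higher and 5 were neither, with a median difference of -0.50. Among all genes examined, 14.2% were called lower and 18.2% higher, with a median of 0.12. NKX2-1-AS1, a noncoding RNA on the opposite strand that overlaps 948 bases of NKX2-1, measured 3.29 FPKM in H2087 against 0.0591 in H596. Whether the counting used strand is not given in the sources used here, so the reads of NKX2-1-AS1 and NKX2-1 cannot be told apart with certainty. MBIP, the nearest gene examined beyond the end of SFTA3, measured 69.6 FPKM in H2087 against 21.2 in H596, a difference of -1.67.

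On the other side, NKX2-8 was higher in H596, while PAX9, SLC25A21-AS1 and MIPOL1 were lower without being called. NKX2-8, a homeobox gene of the same family, measured 2.88 FPKM in H2087 against 7.27 in H596, a difference of 1.09, which is not called after TMM scaling or centring. PAX9, a paired box factor of the pharyngeal endoderm, measured 30.3 FPKM in H2087 against 19.4 in H596. SLC25A21-AS1 and MIPOL1, further out, differed by -0.38 and -0.93, and on the side of MBIP, BRMS1L and RALGAPA1 differed by 0.32 and 0.71. INSM2, SNORA101B, PTCSC3 and SLC25A21 had a mean FPKM under 1. On this scale the differences of NKX2-1 and SFTA3 were larger than those of all 8 examined neighbours. All 8 were below NKX2-1 and SFTA3 in H2087, and that level limits how far a gene can fall on the scale. None of the 8 could have fallen by as much, not even MBIP, the highest of them at 69.6 FPKM in H2087. The comparison of sizes downward was therefore fixed by the levels in H2087, and no conclusion is drawn from it.

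**Figure D3:**
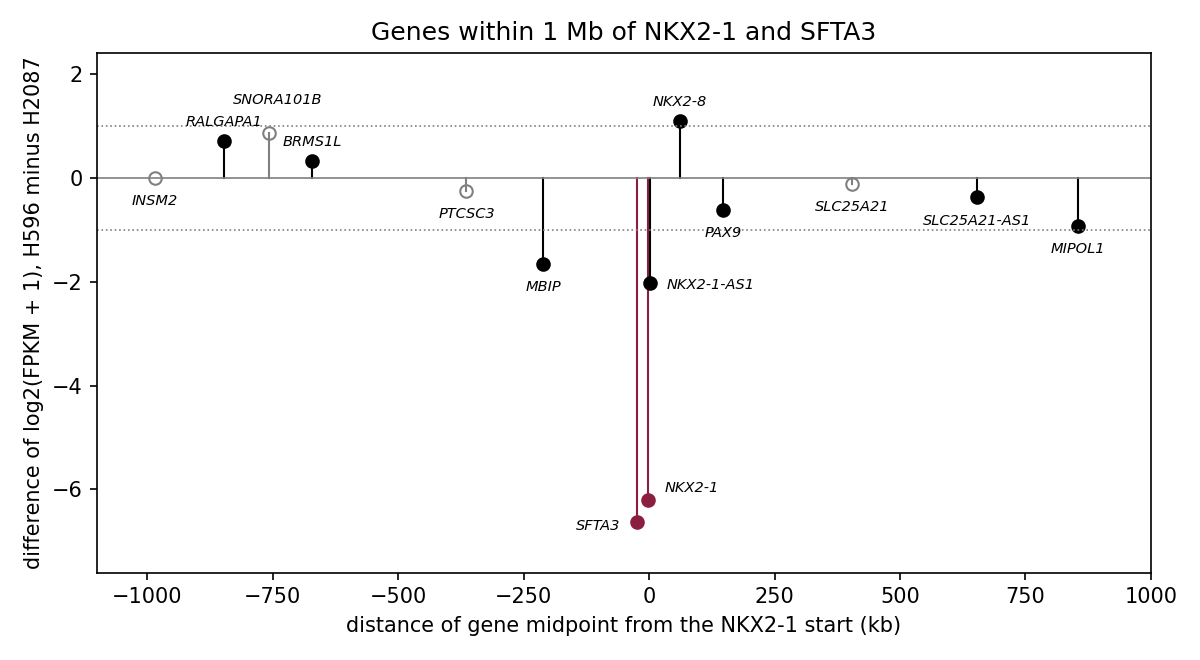
Difference of log2(FPKM + 1), H596 minus H2087, of the genes with counts within 1 Mb of NKX2-1 and SFTA3, by the distance (kb) of the gene's midpoint from the NKX2-1 start; filled points had a mean FPKM of at least 1, and dotted lines mark the call of 1. NKX2-1 and SFTA3 stand at -6.20 and -6.62, and the other genes lie between -2.02 and 1.09. No other gene shown was high enough in H2087 to fall as far as NKX2-1 and SFTA3 on this scale.

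FOXA1 lies on the same chromosome, 1069326 bases beyond NKX2-1, and its nearest examined neighbours MIPOL1 and SEC23A differed by -0.93 and -1.16, against 0.46 for FOXA1. Beside FOXA2, the nearest examined genes were XRN2, 1191 kb away, with a difference of 0.12, and THBD, 460.2 kb away. THBD, which encodes thrombomodulin, measured 93.2 FPKM in H2087 against 0.232 in H596, a difference of -6.26. Beside SPDEF, RPS10 differed by -0.21 and C6orf106 by 2.39. Beside ELF3, ELF3-AS1, whose last listed base lies 0.2 kb before ELF3, measured 9.84 FPKM in H2087 against 22.05 in H596, a difference of 1.09. Beside FOXA3, SYMPK differed by 0.45 and IRF2BP1 by 1.57, and beside HNF4A, FITM2 differed by 0.93 and TTPAL by 0.13. Some neighbours thus went in the direction of the lineage gene, as THBD did with FOXA2 and ELF3-AS1 with ELF3. Others went against it, as C6orf106 did with SPDEF and MIPOL1 and SEC23A with FOXA1. FOXA3 and HNF4A were too low in both libraries for such a comparison.

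Genes of lung epithelium, several of which are known to depend on NKX2-1, went in both directions. Of 13 such genes, 6 were called lower in H596, 2 were called higher and 5 had a mean FPKM under 1. Among all genes examined, 14.2% were called lower and 18.2% higher. The median over the 13 was -0.17, against 0.00 for all listed genes. Over the 8 examined it was -3.35, against 0.12 for all genes examined. SFTPA1 and SFTPA2, which encode surfactant protein A and are near-identical in sequence, so that their reads are divided with uncertainty, measured 82.9 and 47.6 FPKM in H2087. Both had 0 counts in H596, so they were at least 3363-fold and 2027-fold higher in H2087. NAPSA, an aspartic protease of alveolar cells that processes surfactant protein B, measured 21.9 FPKM in H2087 against 0.0645 in H596. LPCAT1, an enzyme of surfactant lipid synthesis, had 147 in H2087 and 16.5 in H596.

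ABCA3, a lipid transporter of lamellar bodies, and SLC34A2, a phosphate transporter of alveolar type 2 cells, were the others called lower, with FPKM values in H2087 of 10.6 and 11.3. In H596 ABCA3 was at 0.640 and SLC34A2 had 0 counts; both were named after their values were seen.

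The list was not uniform. LAMP3 and SCGB1A1, also named with their values known, were the genes called higher in H596. LAMP3, a lysosomal membrane protein of alveolar type 2 cells, measured 1.13 FPKM in H2087 against 7.24 in H596. SCGB1A1, the secretoglobin of club cells, had 0 counts in H2087 and an FPKM of 16.1 in H596. SFTPB and SFTPC, chosen in the same way, were at or near 0 in both, with 22 and 0 counts in H2087 and 0 and 2 in H596. H2087 therefore held surfactant protein A transcripts with almost none of surfactant proteins B and C.

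Of 17 gut and liver genes known as targets of HNF4A or FOXA factors, 1 was examined and called lower in H596, and 11 had at most 3 counts in each library. Among all genes examined, 14.2% were called lower and 18.2% higher, and 1 examined gene cannot stand for the list. SERPINA1, which encodes alpha-1-antitrypsin and is also made outside the liver, measured 45.0 FPKM in H2087 against 0.790 in H596, which is 57.0-fold. ANXA13, the next highest, measured 1.89 FPKM in H2087 and 0 counts in H596. APOB, ALB, TTR, CDH17 and VIL1, named with their values known, were among the 9 with 0 counts in both libraries. The median over the list was 0.00, the same as for all listed genes, and HNF4A was near 0 alongside most of it. A link between the 2 was not tested.

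Of 13 goblet cell genes known to go with SPDEF and FOXA3, 5 were examined. Of these, 2 were called higher and 1 lower in H596, beside 18.2% higher and 14.2% lower among all genes examined. The median was 0.01 over the 13 and 0.67 over the 5 examined. AGR2, a protein disulfide isomerase of secretory cells, measured 302 FPKM in H2087 against 896 in H596. AGR3, its relative, had 0 counts in H2087 and an FPKM of 15.6 in H596. CREB3L1, a transcription factor of secretory cells, measured 6.39 FPKM in H2087 against 0.0844 in H596. ST6GALNAC1, a sialyltransferase, had 23.4 in H2087 and 38.0 in H596. The genes called higher thus ran against SPDEF, and CREB3L1 ran with it. Most of the list was too low to be examined. TFF1, CLCA1 and SPINK4, named with their values known, had 0 counts in both libraries. MUC5AC had 0 counts in H2087 and 4 in H596, and MUC5B had 14 and 0.

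**Figure D4:**
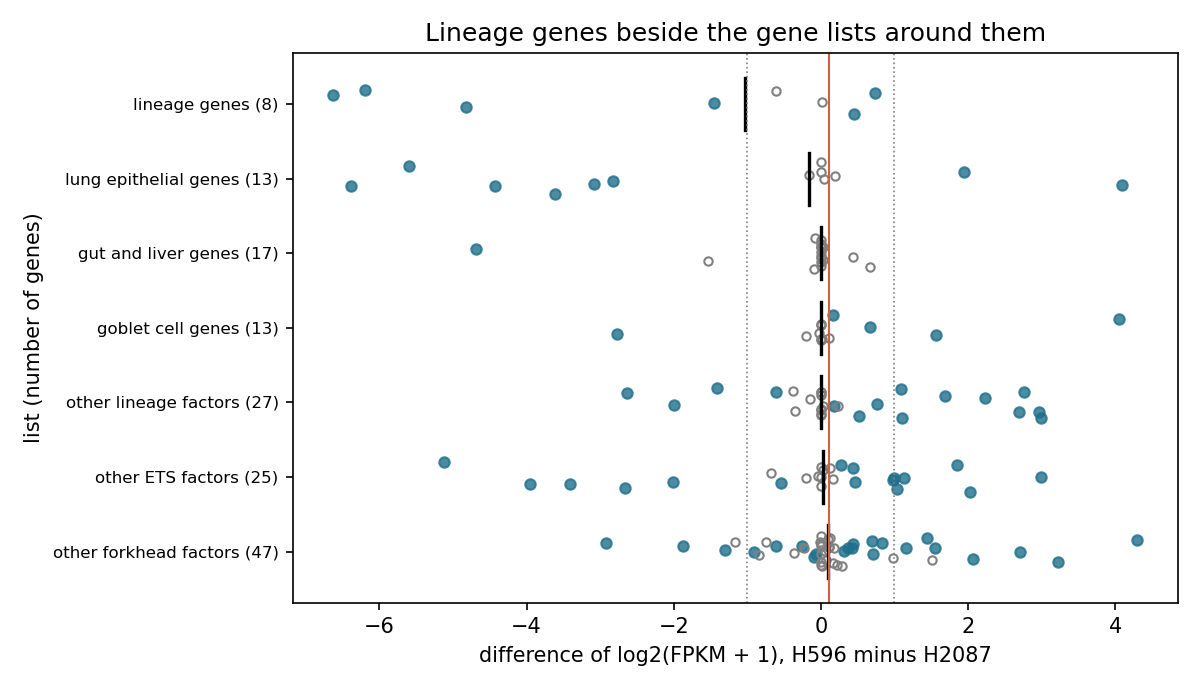
Difference of log2(FPKM + 1), H596 minus H2087, of each gene in the 8 lineage genes and in 6 lists around them; filled points had a mean FPKM of at least 1, open points less, black bars are medians over all genes of a list, dotted lines mark the call of 1 and the colored line is the median of all genes examined, 0.12. Over all their genes, the medians of the other lists lie between -0.17 and 0.09, where that of all listed genes is 0.00. Over examined genes alone they lie between -4.68, from 1 gut and liver gene, and 1.09, for other lineage factors. Single genes in these lists reach from -6.39 to 4.30.

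Among 27 other transcription factors of endoderm and epithelium, some of which also stand in the family lists or near NKX2-1, 15 were examined. Of these, 8 were called higher and 3 lower in H596, beside 18.2% higher and 14.2% lower among all genes examined. KLF5, a zinc finger factor of epithelial growth, measured 15.8 FPKM in H2087 against 113 in H596. EHF, an ETS factor related to ELF3, had 6.93 in H2087 and 62.1 in H596. CEBPA, a leucine zipper factor of the lung and liver, had 0.349 in H2087 and 9.50 in H596. SOX2, an airway and squamous lineage factor, had 39.1 in H2087 and 56.5 in H596 and was not called. HHEX, SOX9 and MYB, named in the same way, were those called lower, with differences of -2.00, -2.64 and -1.41. The median was 0.00 over the 27, of which 7 had 0 counts in both libraries, and 1.09 over the 15 examined.

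The relatives of the lineage genes went in both directions, as did all genes examined, of which 18.2% were called higher and 14.2% lower. Of 25 other ETS factors, 16 were examined, of which 5 were called higher and 5 lower in H596. The median was 0.03 over the list and 0.45 over the 16 examined. The ETV4 and ETV5 factors, which are known targets of receptor kinase signaling, measured 28.2 and 37.0 FPKM in H2087 and 0.884 and 0.0901 in H596. ETV1, of the same subfamily, had 9.65 in H2087 and 3 counts in H596. EHF, given above, and ETS2, with 13.3 in H2087 and 56.8 in H596, had the highest mean FPKM of the list and were higher in H596. Of 6 other NK2 factors, NKX2-5 and NKX2-8 were examined, and NKX2-5 measured 4.28 FPKM in H2087 against 1.14 in H596. Of 47 other forkhead genes, 22 were examined, of which 7 were called higher and 3 lower in H596. The median was 0.09 over the list and 0.43 over the 22 examined. FOXJ1, the factor of ciliated cells, measured 9.07 FPKM in H2087 against 0.331 in H596. FOXQ1 had 0.268 in H2087 and 24.0 in H596, and FOXI3 had 0 counts in H2087 and 8.37 in H596. FOXM1, a cell cycle factor, had 32.8 and 31.3, and FOXK2 had 16.8 and 28.1.

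The genes most like NKX2-1 and SFTA3 over the 2 libraries were found by the Euclidean distance of log2(FPKM + 1). For NKX2-1 they were FKBP10, THBD and EREG, at distances of 0.28, 0.37 and 0.54. For SFTA3 they were EREG, GAL and SFTPA1, at distances of 0.04, 0.22 and 0.28. EREG, which encodes a ligand of the epidermal growth factor receptor, measured 99.3 FPKM in H2087 against 0.0533 in H596. With 2 libraries a likeness says only that 2 levels are close. Counting both libraries, 3 other genes were at least as high as NKX2-1 in H2087 and no higher than it in H596, and 3 were so for SFTA3.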

How the data were processed

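RNA was extracted with TRIzol and made into libraries with a TruSeq stranded mRNA kit, and reads came from a HiSeq4000. Per the labels, the authors used bcl2fastq 1.8.4, Trimmomatic, HISAT2 2.0.5 and StringTie 1.3.3b on hg19. A gene table and a transcript table were deposited. The estimated counts deposited are whole numbers whose derivation is not given in the sources used here, and the FPKM values deposited are normalized by the authors for transcript length and library size. Where a symbol had several rows, the row with the highest FPKM was kept.

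Levels were compared by log2(FPKM + 1), a pseudocount of 1, and called at a difference of 1 where the mean FPKM reached 1. Intervals are 95% Wilson intervals of the share of the total count, and 95% Clopper-Pearson intervals for folds (scipy 1.17.1); a count of 0 was set at 3 counts per library. PCR copies are not independent molecules, so intervals cover counting error only. Scripts were tested on simulated data. Alternatives were TPM, TMM scaling (edgeR 4.0.16, R 4.3.3), centring, a pseudocount of 0.1, other filters and single transcripts. Strands came from GENCODE release 44 on GRCh37, in which the symbols and positions of all 8 genes matched, and start windows from RefSeq.

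Named genes were the 8 genes, transcripts with at least 10% of a gene in either library, the 3 largest called differences and 2 highest genes of each list, genes with counts within 1 Mb of NKX2-1 or SFTA3, the nearest examined neighbours of the others, and the 3 nearest patterns; cell type markers were a list of their own. A neighbour and a marker that these rules name are not reported here. The genes and lists were chosen with earlier results of these data known. Python 3.11.15, numpy 2.4.6, pandas 2.3.3 and matplotlib 3.10.9 were used.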

Additional observations from a re-analysis of the deposited data

How the results depend on the processing

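Under 7 alternatives, the 4 genes NKX2-1, SFTA3, FOXA2 and SPDEF stayed called lower in H596, except that SPDEF was not examined with a mean FPKM of at least 10, which left 3; 0 genes were called higher under each. The differences ranged from -7.50 to -5.95 for NKX2-1, from -9.59 to -4.64 for SFTA3, from -7.14 to -4.62 for FOXA2, from -2.55 to -1.28 for SPDEF, from 0.33 to 0.64 for FOXA1 and from 0.61 to 0.92 for ELF3. The number of genes called in the lists was 43 as deposited, where 2376 of all 13047 genes examined were called higher and 1850 lower. With a mean FPKM of at least 10 it was 18, where 1045 of all 6708 genes examined were called higher and 941 lower. The number of the 8 genes at an FPKM of 100 in H2087 was 3, against 0 at a threshold of 200 and 1 by the highest single transcript; in H596 it was 1, against 2 in TPM. No paired analysis was possible because H2087 and H596 have a single library apiece, and none could be left out. FOXA3, not called, ranged from -2.66 to -0.62. It passed the size needed for a call in TPM and with a pseudocount of 0.1, where its mean was under the filter. HNF4A, not called, changed sign, from -0.11 to 0.08. Depth limits HNF4A in both libraries, and SFTA3 and FOXA3 in H596.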

Other observations

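Of 4 ciliated cell markers, 2 were examined and both were called lower in H596, FOXJ1, given above among the forkhead genes, and CCDC78. Among all genes examined, 14.2% were called lower and 18.2% higher. The 4 markers summed to 14.4 FPKM in H2087 against 1.17 in H596. TPPP3 had 33 and 31 counts and DNAI1 had 10 and 0, so the difference of the sums came mostly from FOXJ1 and CCDC78. CCDC78 measured 4.58 FPKM in H2087 against 0.365 in H596.

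The deposited counts appear to be rounded up, which matters for genes near 0. Of 37992 transcripts with an FPKM above 0 in H2087 and 38916 in H596, 0 had a count of 0. Among transcripts with a count of 1, the FPKM amounted to under 0.5 reads for 570 of 1016 in H2087 and for 506 of 914 in H596. SFTA3 in H596, with 9 transcripts to round, had 6 counts where its FPKM amounted to 3 reads, while NKX2-1 had 66 against 65.6.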
